A study of Mus musculus with 22 samples.

Results

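The collagen genes of the mouse were followed through molar development in bulk RNA sequencing of whole first mandibular molars. Members were all genes of the normalised expression table whose symbol reads Col, a number, the letter a and a number, which gave 44 of 28711 genes. All 44 passed the filter on low counts that left 21510 genes for testing. By class they were 11 fibrillar collagens, 9 FACITs (fibril-associated collagens with interrupted triple helices), 6 network-forming chains of type IV, 6 beaded-filament chains of type VI, 4 transmembrane collagens, 3 short-chain collagens of types VIII and X, 2 multiplexins, the anchoring-fibril collagen Col7a1, and 2 others (Col26a1 and Col28a1).

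Mice were either heterozygous for the G357W mutation of Tgfbr2 (Tgfbr2-G357W/+, Het), which leaves 1 unmutated copy of the type II TGF-beta receptor, or Tgfbr2-+/+ littermates (WT). No Cre driver, other allele or agent is named for either genotype, and the cells are labelled as dental tissue without further sorting. The mutation serves as a model of Loeys-Dietz syndrome, an inherited disorder of connective tissue. Molars were taken at postnatal day 5 (P5; 6 WT and 6 Het libraries) and postnatal day 11 (P11; 5 WT and 5 Het libraries).

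Collagens are triple helices of 3 chains. Fibrillar collagens give dentin, bone and periodontal ligament their tensile strength, FACITs coat those fibrils, type IV chains form the mesh of basement membranes, type VI chains form fine filaments around cells, and transmembrane collagens sit in the plasma membrane. Dentin and bone matrix are mostly type I collagen, whereas enamel is laid down by ameloblasts as a matrix that lacks collagen. TGF-beta signalling is a well-known inducer of fibrillar collagen genes in fibroblasts.

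Library totals ranged from 32903949 to 45343744 counts, of which 711620 to 2896894 fell on the 44 collagen genes. The tissue label was matched by its markers: the summed level of 8 ameloblast genes was 83004 to 170544 CPM and that of 6 odontoblast genes 1420 to 3892 CPM over all libraries (CPM is the count scaled to a common library total, here with TMM-adjusted library sizes). The library P5 Het 6 is called P5 in its title and library name and P11 in its tissue and treatment fields. It was kept as P5 Het, and the value without it is given where a call changes. Oral keratinocyte genes (7 measured of 8) summed to 1169, 513 and 872 CPM in P11 WT 4, P11 WT 5 and P11 Het 2 and to 78.9 to 185 CPM in the other P11 libraries, and P5 Het 4, P5 Het 5 and P11 Het 2 also held more oral keratinocyte or muscle RNA than their groups. Only 5 Het and 8 WT mice are mentioned in the design text for these 22 libraries and no label ties a library to an animal, so p-values measure the spread between libraries and may be too small. In whole molars, fewer cells of a type and less RNA per cell cannot be told apart.

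Levels differed by more than 4 orders of magnitude between members. Levels of different genes are given as CPM per kilobase of transcript. In P5 WT molars Col1a1, the major chain of type I collagen, averaged 3455 CPM per kilobase, its partner chain Col1a2 1133 and Col3a1, the chain of type III collagen, 616. In P11 WT molars the order was Col1a1 (3641), Col3a1 (2834) and Col1a2 (2534). Col5a2, which helps to set fibril diameter, came next at both ages with 78.2 and 285 CPM per kilobase. The lowest 2 members at both ages were the type VI chains Col6a6 and Col6a4, at 0.138 and 0.077 CPM per kilobase in P5 WT and 0.0767 and 0.0456 in P11 WT.

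**Figure D1:**
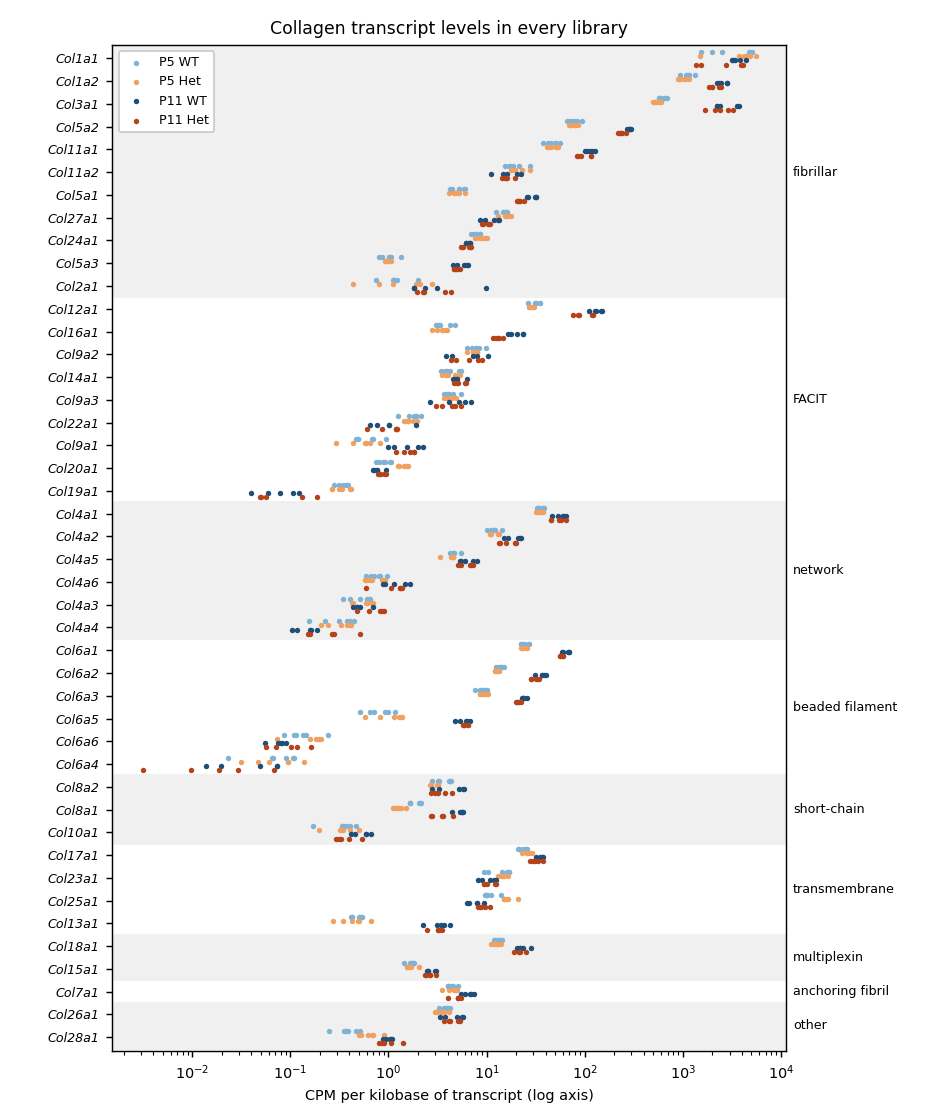
Level of each of the 44 collagen genes in each of the 22 libraries, as CPM per kilobase of transcript on a log axis, by class and with points coloured by group. Col1a1, Col1a2 and Col3a1 lie above all other members in every group, and Col6a4 and Col6a6 have the lowest means in WT.

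These 3 fibrillar chains made up most of the collagen counts, with group medians at P5 of 91.8% (WT) and 92.7% (Het) and at P11 of 87.3% (WT) and 86.6% (Het). The 44 genes together took a median of 3.20% of all counts in P5 WT (1.90% to 4.32%) and 3.52% in P5 Het (1.94% to 4.42%). At P11 they took 5.74% in WT (5.23% to 7.11%) and 4.45% in Het (3.54% to 6.21%). The ranges of the 2 genotypes overlapped at both ages, while all P11 WT libraries lay above all P5 WT libraries. Median coefficients of variation between libraries of a group were 11.6% to 16.0% for the members and 15.5% to 17.3% for all genes tested.

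Col1a1 spread more widely, with coefficients of variation of 47.0% in P5 WT, 34.3% in P5 Het, 14.3% in P11 WT and 46.4% in P11 Het. Its levels in the 6 P5 WT libraries, in order of replicate, were 9057, 28789, 28009, 30447, 11810 and 14812 CPM, and in P5 Het 8872, 25114, 22203, 32811, 28603 and 26410 CPM. At P11 they were 19511, 18915, 20236, 26432 and 22854 CPM in WT and 16482, 8123, 9186, 23221 and 24147 CPM in Het. Libraries P5 WT 1, 5 and 6, P5 Het 1 and P11 Het 2 and 3 stood below the rest, and the genotypes overlapped at both ages.

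Col1a2 did not follow. It ranged from 5044 to 7111 CPM in WT and 4810 to 6125 CPM in Het at P5, and from 11940 to 15210 CPM in WT and 9851 to 13090 CPM in Het at P11. The per-length ratio of Col1a1 to Col1a2, whose chains join 2 to 1 in type I collagen, therefore ran from 1.62 to 4.45 in P5 WT and from 1.58 to 5.31 in P5 Het. It ran from 1.30 to 1.57 in P11 WT and from 0.69 to 1.67 in P11 Het. Summed osteoblast and bone markers (9 genes) lay between 999 and 1213 CPM in every P5 library. They did not separate the P5 libraries low in Col1a1, and neither did ameloblast sums. At P11 the low libraries P11 Het 2 and 3 had the highest ameloblast sums, 114780 and 125232 CPM. The other P11 libraries reached at most 100911 CPM. The part of cell makeup, RNA quality or sequencing run in the spread of Col1a1 was not tested.

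**Figure D2:**
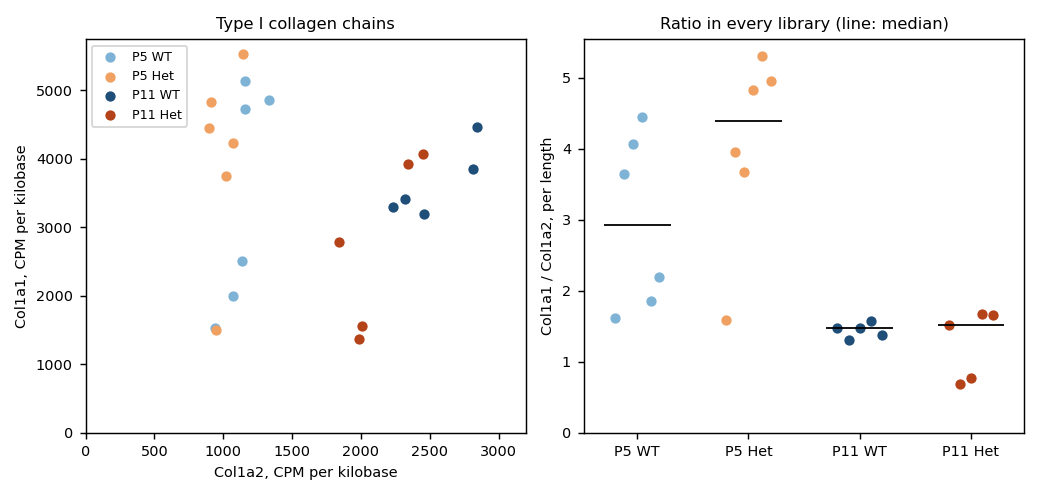
Left, Col1a1 against Col1a2 in each library, both as CPM per kilobase; right, their per-length ratio in each library by group, with a line at the group median. Within a group Col1a1 spreads over a wider range than Col1a2, and ratios at P5 reach 5.31 while those at P11 stay at or below 1.67.

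The comparison of P11 with P5 asks how collagen transcripts change as the crown finishes enamel secretion, the root forms and the periodontal ligament is laid down. Collagen genes mostly rose: 26 of 44 were higher and 8 lower at P11 in WT molars (edgeR quasi-likelihood test, adjusted p under 0.05 over all genes). Of all genes tested, 24.8% were higher and 24.7% lower. At least 2-fold changes were found for 17 members higher and 2 lower, against 9.70% and 8.34% of all genes. The median log2 fold change was 0.66 over the members and -0.01 over all genes tested.

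In Het molars 25 members were higher and 9 lower, against 24.4% and 23.4% of all genes, and 15 and 2 of them by at least 2-fold, against 8.75% and 7.84%. The members' median was 0.50. Both genotypes called 23 members higher and 7 lower, and 6 members were called in neither. Among the 7 lower, the Het call of Col6a6 was lost with no filter on low counts (adjusted p = 0.0746). It was also lost in many omissions of a single library (adjusted p of at most 0.127). Col2a1, Col7a1 and Col10a1 were called higher in WT alone and Col14a1 and Col26a1 in Het alone. Col4a4 was called lower in WT alone and Col20a1 and Col6a4 in Het alone. Single libraries ended 3 of these Het calls: that of Col14a1 was lost without P5 Het 5, P11 Het 2 or P11 Het 3 (adjusted p of at most 0.0748), that of Col26a1 without P5 Het 4, P11 Het 1 or P11 Het 3 (at most 0.0803), and that of Col6a4 without P5 Het 3, P11 Het 3 or P11 Het 5 (at most 0.0582). Col2a1 passed in Het without P5 Het 4 (adjusted p = 0.0279) or P11 WT 4 (adjusted p = 0.0231). In WT, Col14a1 passed as higher without P5 WT 1 (adjusted p = 0.0295) or P5 WT 5 (adjusted p = 0.0459). Col20a1 passed as lower in WT without P11 WT 1 (adjusted p = 0.0386), and single omissions also gave a WT call of Col26a1, described below. None of these 8 members passed the test of the genotype by age interaction described further on.

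Of the 11 fibrillar collagens, 7 rose and 2 fell in WT. Col5a1, the chain that nucleates fibrils with Col5a2, was at 35.9, 44.0 and 50.7 CPM (lowest, median and highest) in P5 WT and at 225, 269, 270, 260 and 216 CPM in P11 WT. All P11 libraries lay above all P5 libraries, and the log2 fold change was 2.51 ± 0.10 (SE), at an adjusted p of 9.3e-16. Col5a3 rose by 2.48 ± 0.11, Col3a1 by 2.20 ± 0.16, Col5a2 by 1.86 ± 0.08, Col11a1 by 1.28 ± 0.11 and Col1a2 by 1.16 ± 0.10 on the log2 scale (± SE).

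The fibrillar members that fell were the minor fibrillar chains Col27a1 (-0.41 ± 0.10) and Col24a1 (-0.26 ± 0.08), both below 2-fold. Col1a1 had a log2 fold change of 0.08 ± 0.33 (adjusted p = 0.869) and Col11a2 of -0.21 ± 0.16 (adjusted p = 0.279). The per-length ratio of Col5a1 to Col5a2 was 0.0605 to 0.0752 in the 12 P5 libraries and 0.0860 to 0.110 in the 10 P11 libraries, without overlap. Col2a1, the cartilage collagen, was at 3.78 to 10.1 CPM in P5 WT and 9.36, 9.21, 11.9, 50.2 and 16.0 CPM in P11 WT (log2 fold change 1.63 ± 0.43, adjusted p = 0.00286). Much of this difference lay in P11 WT 4: without it the log2 fold change was 0.90 ± 0.36 (adjusted p = 0.0428). The ranges of the 2 ages overlapped. The summed cartilage markers (7 measured of 8) were at 38.0 to 61.2 CPM over both ages. In WT they did not rise, with 51.1 to 61.2 CPM at P5 and 39.2 to 57.0 CPM at P11. Of the 6 tested, 2 were called higher and 2 lower at P11 in WT. The proteoglycan gene Acan was at 1.88 to 4.25 CPM in P5 WT and 10.7 to 15.3 CPM in P11 WT. The cartilage gene Snorc was at 0 in all P5 WT libraries and at 0.0761 to 0.206 CPM in P11 WT, which is near the floor. Comp, another of these markers, was at 0.227 to 0.751 CPM in P5 WT and 0.178 to 0.456 CPM in P11 WT.

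Among the FACITs 3 rose and 2 fell in WT. Col16a1, which sits at the edge of fibrils, was at 15.8, 17.2 and 24.7 CPM (lowest, median and highest) in P5 WT and at 91.4, 124, 121, 105 and 85.9 CPM in P11 WT, which is a rise of 2.48 ± 0.12 on the log2 scale (SE, adjusted p = 4.21e-14). Col12a1, a FACIT of ligament and tendon, went from 307, 365 and 402 CPM to 1270, 1513, 1467, 1708 and 1738 CPM, which is a rise of 2.07 ± 0.11 (SE, adjusted p = 2.34e-13). Neither gene's P5 and P11 libraries overlapped. Col9a1 rose by 1.34 ± 0.24 on the log2 scale, while its partner chains Col9a2 (-0.21 ± 0.20) and Col9a3 (0.21 ± 0.18) did not pass the test. The per-length ratio of Col9a1 to Col9a2 was 0.0377 to 0.130 at P5 and 0.205 to 0.329 at P11.

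The deepest fall of any member was that of Col19a1, a FACIT found at basement membrane zones. It went from 1.20, 1.51 and 1.67 CPM in P5 WT to 0.335, 0.255, 0.517, 0.168 and 0.457 CPM in P11 WT, which is a log2 change of -2.08 ± 0.32 (SE, adjusted p = 7.67e-06). These values rest on 43 to 63 counts in a P5 WT library and 7 to 21 in a P11 WT library. Col22a1, a FACIT of tissue junctions, fell by 0.74 on the log2 scale (adjusted p = 0.00622), although its P5 WT range of 11.1 to 18.9 CPM overlapped its P11 WT range of 5.73 to 16.8 CPM.

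Of the 6 type IV chains, 4 rose and 1 fell in WT. Col4a1 and Col4a2, the chains found in nearly all basement membranes, rose by 0.69 ± 0.09 and 0.70 ± 0.12 on the log2 scale (± SE) in WT. Col4a1 was at 214 to 257 CPM in P5 WT and 304 to 424 CPM in P11 WT, and Col4a2 at 65.9 to 91.9 and 95.9 to 143 CPM. The genes lie head to head on chromosome 8 (GRCm38), with annotated starts 21 bases apart, and their per-length ratio stayed between 2.63 and 3.49 in all 22 libraries. Col4a5 rose by 0.46 ± 0.11 and Col4a6 by 0.68 ± 0.20, and these 2 genes also lie head to head, with 1309 bases between starts on the X chromosome.

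Col4a4 and Col4a3, whose starts lie 72 bases apart on chromosome 1, changed unequally. Col4a4 fell from 1.55, 3.49 and 4.52 CPM (lowest, median and highest) in P5 WT to 1.62, 1.04, 1.89, 1.61 and 1.19 CPM in P11 WT, with overlap at the low end (log2 fold change -1.14 ± 0.31 SE, adjusted p = 0.00345). Col4a3 had a log2 fold change of -0.02 ± 0.19 (adjusted p = 0.931). The libraries carry no strand information, so reads where 2 genes overlap cannot be told apart. As annotated, Col4a1 and Col4a2 overlap by 22 bases, while Col4a3 and Col4a4 do not overlap.

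Of the type VI chains, Col6a1, Col6a2 and Col6a3, which assemble into the common form of the filament, each rose by 1.41 ± 0.07 on the log2 scale (± SE). Col6a1 went from 91.1 to 112 CPM in P5 WT to 243 to 283 CPM in P11 WT, Col6a2 from 49.0 to 58.9 to 123 to 158 CPM, and Col6a3 from 77.1 to 103 to 230 to 262 CPM. The per-length ratio of Col6a1 to Col6a2 was 1.53 to 2.04 over all libraries. Col6a5 rose in WT from 4.80, 7.66 and 10.7 CPM (lowest, median and highest) to 63.4, 58.0, 44.5, 49.5 and 58.9 CPM (log2 fold change 2.84 ± 0.19 SE, adjusted p = 1.04e-11). This estimate and that of Col13a1, given below with the transmembrane collagens, were the largest in WT and lay within each other's SE.

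Col6a5 lies between Col6a6 and Col6a4 on the same strand of chromosome 9, and neither neighbour rose. Col6a6 fell in WT by 0.85 (log2, adjusted p = 0.0212), with overlapping ranges of 0.759 to 2.12 CPM at P5 and 0.480 to 0.789 CPM at P11, and the call was lost without P5 WT 1 (adjusted p = 0.0905) or P11 WT 4 (adjusted p = 0.0596). Col6a4 had a log2 fold change of -0.75 ± 0.52 (adjusted p = 0.244). Another pair of neighbours, Col9a1 and Col19a1, which lie tail to tail on chromosome 1, changed in opposite directions (1.34 and -2.08), whereas Col3a1 and Col5a2, also tail to tail on chromosome 1, both rose.

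Among the transmembrane collagens Col13a1, a collagen of cell-matrix adhesions, rose from 1.31, 1.47 and 1.69 CPM in P5 WT to 10.8, 13.4, 11.7, 9.81 and 7.16 CPM in P11 WT (log2 fold change 2.83 ± 0.18 SE, adjusted p = 3.68e-12). Col17a1, the hemidesmosome collagen of epithelia, rose by 0.59 ± 0.08, from 118 to 144 CPM to 176 to 210 CPM. Col25a1, known from motor neuron development and from amyloid plaques, fell by 0.50 on the log2 scale (adjusted p = 0.000757) and Col23a1 fell by 0.42 (adjusted p = 0.0164). Col23a1 was at 53.6 to 95.6 CPM in P5 WT and 46.0 to 70.9 CPM in P11 WT, with overlap, and its call was lost without P5 WT 1, P5 WT 2, P5 WT 4 or P11 WT 4 (adjusted p of at most 0.0608).

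The remaining classes moved upward where they moved. Col8a1, a short-chain collagen of vessel walls and other subendothelial matrix, rose by 1.52 ± 0.12 on the log2 scale and the hypertrophic cartilage collagen Col10a1 by 0.64 ± 0.24, while Col8a2 (12 to 18.7 CPM in P5 WT and 12.2 to 25.3 CPM in P11 WT) did not pass (0.33 ± 0.17, adjusted p = 0.109). The call of Col10a1 was lost without P5 WT 3 or without any of P11 WT 1, 2 and 3 (adjusted p of at most 0.0779), and with no filter on low counts (adjusted p = 0.0585). Col8a2 passed without P11 WT 4 (adjusted p = 0.0163) or P11 WT 5 (adjusted p = 0.0422). The basement-membrane multiplexins Col18a1 and Col15a1 rose by 0.83 ± 0.08 and 0.69 ± 0.09, from 66.1 to 80.4 CPM to 114 to 160 CPM and from 7.49 to 9.43 CPM to 12.8 to 15.8 CPM. Col7a1, which anchors epithelia to the matrix below, rose by 0.58 ± 0.10, from 37.0 to 47.7 CPM to 51.0 to 68.8 CPM. Col28a1 rose by 1.36 ± 0.18, from 1.06 to 2.19 CPM to 3.73 to 4.59 CPM, and Col26a1 (8.82 to 11.5 and 9.06 to 15.7 CPM) did not pass (0.30 ± 0.13, adjusted p = 0.0658), although Col26a1 did without P5 WT 2, P11 WT 4 or P11 WT 5 (lowest adjusted p = 0.0111).

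**Figure D3:**
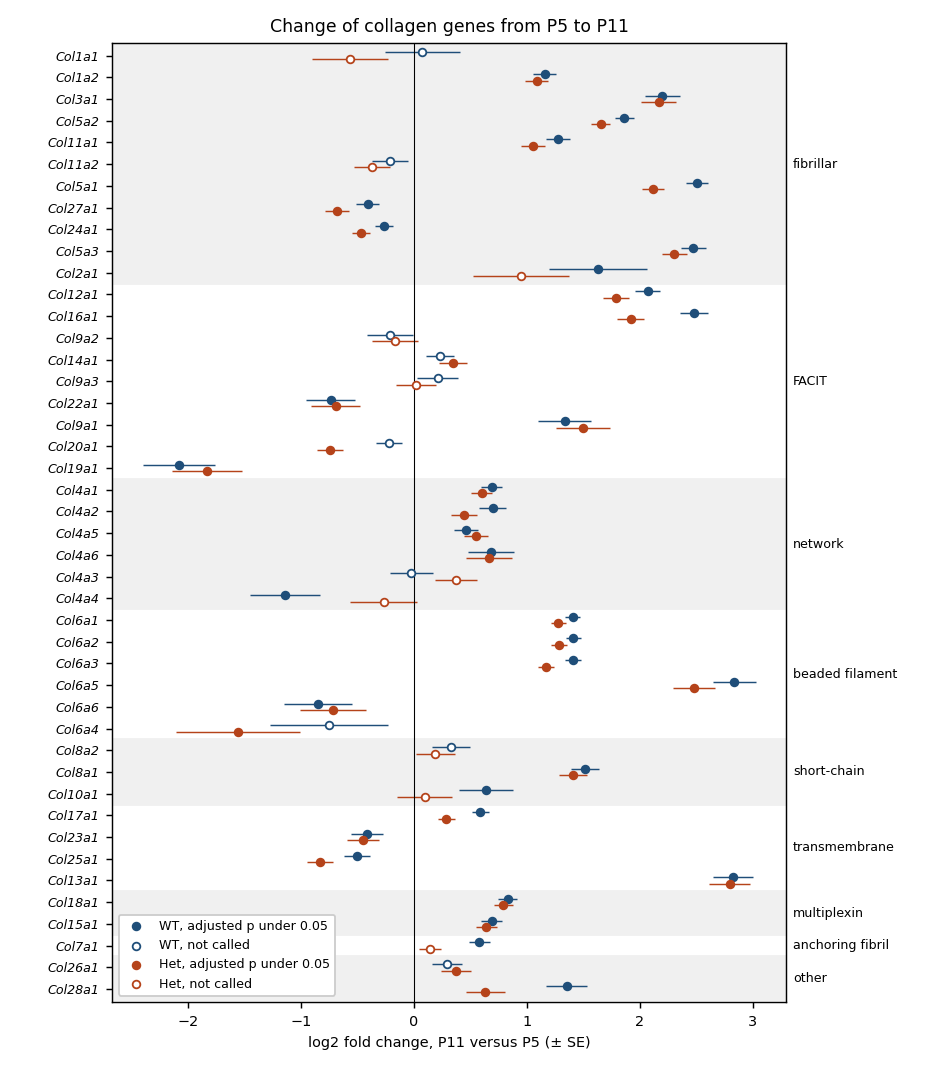
Log2 fold change (± SE) of each collagen gene from P5 to P11, in WT and in Het molars, by class; filled points have an adjusted p under 0.05. Col6a5, Col13a1, Col5a1, Col16a1 and Col5a3 lie farthest to the right in WT and Col19a1 farthest to the left.

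Markers of other cells moved with age as well. The 5 tendon and periodontal ligament genes (Scx, Mkx, Tnmd, Aspn and Postn) summed to 132 to 220 CPM in P5 WT and 1345 to 2033 CPM in P11 WT, and 4 of 5 were called higher. Osteoblast and bone markers summed to 1097 to 1213 CPM in P5 WT and 2507 to 3366 CPM in P11 WT. Endothelial and mural cell markers (11 genes) went from 3410 to 6126 CPM to 7185 to 9674 CPM in WT, with 9 called higher and none lower. Dental epithelium markers (5 genes) went from 1256 to 1396 CPM to 4074 to 7283 CPM, with 3 higher and 1 lower. Sums of nerve and Schwann cell, oral keratinocyte and skeletal muscle markers rose as well. The odontoblast, mesenchyme and ameloblast sums fell in WT. Odontoblast markers (6 genes) went from 3108 to 3892 CPM to 1420 to 1903 CPM, with 2 genes called higher and 4 lower. Pulp and follicle mesenchyme markers (6 genes) went from 2758 to 3034 CPM to 2152 to 2441 CPM, also with 2 higher and 4 lower. Ameloblast markers (8 genes) went from 154323 to 170544 CPM to 83004 to 91123 CPM, with 4 higher and 4 lower. The part of any of these cells in the age changes of the collagen genes was not tested. Without the 5 libraries high in oral keratinocyte or muscle genes, 27 members were higher and 5 lower with age in WT, against 21.3% and 20.9% of all genes. Col2a1 (0.70 ± 0.37, adjusted p = 0.133) and Col4a6 (0.38 ± 0.21, adjusted p = 0.17) were then no longer called higher, and Col23a1, Col27a1 and Col6a6 no longer lower. Col26a1 (0.51 ± 0.12), Col8a2 (0.62 ± 0.15) and Col9a3 (0.49 ± 0.15) were called higher in their place.

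The comparison of Het with WT molars asks which collagen genes respond to the receptor mutation. At P5, 2 members were higher in Het molars and none lower, against 0.0651% and 0.195% of all genes tested. At P11 none was called in either direction, against 0.0232% higher and 0.00465% lower. Over the mean of both ages 2 were higher and 1 lower, against 0.0651% and 0.107%. None was called in the genotype by age interaction, against 0.0139% and 0.0% of all genes. The called members were Col20a1 and Col25a1 (higher) and Col8a1 (lower).

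Where edgeR called none, members at an unadjusted p under 0.05 were also counted. At P5 there was 1 lower, against 3.43% of all genes. At P11 there were 12 lower, against 3.96%, and 3 higher, against 5.89%. In the interaction there were 7 lower, against 4.03%, and 0 higher, against 6.26%. DESeq2 called 1 member lower at P5 (0.418% of all genes) and limma-voom 0 (0.191%). At P11 DESeq2 called 5 members lower (0.172% of all genes) and limma-voom 2 (0.0697%), and neither called one higher (0.325% and 0.0232%). In the interaction both called 0 members in either direction, against 0.191% higher and 0.0697% lower for DESeq2 and 0.0139% and 0.0% for limma-voom.

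The upstream sequences of 5 members are shown: the 3 called members, and Col5a1 and Col16a1. Col5a1 and Col16a1 were not called but had the largest differences among the members whose genotypes did not overlap at P11. Whether these sequences play a part in the genotype differences was not tested. Each line gives the 250 bases before the RefSeq start (GRCm38.p6), read along the gene's strand, with CAGACA or its reverse complement TGTCTG in capitals. CAGACA is the core of the CAGA element that Smad3 and Smad4, the transcription factors downstream of TGF-beta receptors, are known to bind. The windows are chr2:180986285-180986534 (+) for Col20a1, chr3:130180595-130180844 (+) for Col25a1, chr16:57754738-57754987 (-) for Col8a1, chr2:27886175-27886424 (+) for Col5a1 and chr4:130047590-130047839 (+) for Col16a1.
Col20a1: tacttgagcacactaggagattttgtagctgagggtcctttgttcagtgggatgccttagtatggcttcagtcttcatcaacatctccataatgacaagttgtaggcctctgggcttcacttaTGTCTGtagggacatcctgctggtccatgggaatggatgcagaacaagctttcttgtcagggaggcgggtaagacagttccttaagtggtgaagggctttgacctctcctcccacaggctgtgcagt
Col25a1: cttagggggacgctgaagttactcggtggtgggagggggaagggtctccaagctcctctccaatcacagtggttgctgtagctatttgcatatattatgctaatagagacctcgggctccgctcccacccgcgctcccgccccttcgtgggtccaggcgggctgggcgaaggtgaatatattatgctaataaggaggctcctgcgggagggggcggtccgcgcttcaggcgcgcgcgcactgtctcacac
Col8a1: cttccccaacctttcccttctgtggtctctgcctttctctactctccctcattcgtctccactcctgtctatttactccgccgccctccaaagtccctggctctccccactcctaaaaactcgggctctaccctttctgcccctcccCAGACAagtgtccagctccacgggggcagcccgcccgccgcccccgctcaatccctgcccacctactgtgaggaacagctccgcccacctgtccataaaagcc
Col5a1: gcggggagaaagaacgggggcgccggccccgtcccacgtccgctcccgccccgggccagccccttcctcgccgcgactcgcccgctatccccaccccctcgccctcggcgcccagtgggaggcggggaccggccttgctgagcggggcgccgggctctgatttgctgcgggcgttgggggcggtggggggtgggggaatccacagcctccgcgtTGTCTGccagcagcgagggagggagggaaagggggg
Col16a1: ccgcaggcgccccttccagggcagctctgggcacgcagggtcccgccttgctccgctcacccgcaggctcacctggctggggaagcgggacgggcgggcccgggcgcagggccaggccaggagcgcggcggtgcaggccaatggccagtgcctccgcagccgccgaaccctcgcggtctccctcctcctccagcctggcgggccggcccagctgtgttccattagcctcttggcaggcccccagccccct
The motif starts 127 bases before the start of Col20a1, 103 before that of Col8a1 and 36 before that of Col5a1, and these letters are not in the windows of Col25a1 and Col16a1. For Col25a1 the RefSeq start lies inside the GENCODE gene, which begins at 130131501. RefSeq windows of 300 bases (250 before and 50 after the start) were matched for 35 of the 44 members. The motif on either strand was in 9 of their 38 windows (23.7%), against 21% of all 32851 windows, so its share among collagen genes was near that of all promoters.

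Col20a1, a FACIT with few described functions (chromosome 2, 180986535 to 181018363, 37 exons), was at 3.33, 4.04 and 4.73 CPM (lowest, median and highest) in P5 WT and at 5.55, 6.54 and 7.04 CPM in P5 Het. All 6 Het libraries lay above all 6 WT libraries. The log2 fold change was 0.65 ± 0.11 (SE; adjusted p = 0.00634). At P11 the WT libraries had 4.25, 3.44, 3.42, 3.19 and 3.12 CPM and the Het libraries 3.70, 4.01, 3.65, 3.50 and 4.24 CPM, which overlap (0.13 ± 0.12, adjusted p = 0.755). The interaction had an adjusted p of 0.354, so a difference between the ages was not shown.

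Col25a1 (chromosome 3, 130131501 to 130599877, 38 exons) was at 25.4, 26.6 and 37.1 CPM in P5 WT and at 39.0, 40.8 and 54.5 CPM in P5 Het, again without overlap (log2 fold change 0.59 ± 0.11 SE, adjusted p = 0.0114). At P11 WT libraries had 21.2, 20.9, 24.4, 16.5 and 17.5 CPM and Het libraries 25.1, 21.7, 28.3, 23.0 and 22.7 CPM (0.26 ± 0.12, adjusted p = 0.471). The mean of both ages was 0.43 ± 0.08 (adjusted p = 0.0222) for Col25a1 and 0.39 ± 0.08 (adjusted p = 0.0453) for Col20a1. The call of Col25a1 over both ages was lost without P11 WT 4 or P11 WT 5, where its adjusted p was at most 0.0504, and that of Col20a1 was kept in 5 of the 22 omissions of a library, those of WT 1, WT 4 and Het 1 at P5 and of WT 1 and Het 4 at P11. Without P5 Het 6, the library with the conflicting age label, Col20a1 had an adjusted p of 0.0797 over both ages. At P5 both were called in all 22 omissions, with adjusted p of at most 0.0221 for Col20a1 and 0.0333 for Col25a1.

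Col8a1 (chromosome 16, 57624258 to 57754737, minus strand, 4 exons) was called lower in Het molars over the mean of both ages. It was at 8.35, 9.51 and 11.0 CPM in P5 WT and at 5.65, 6.50 and 7.74 CPM in P5 Het, without overlap. At P11 WT libraries had 28.5, 29.3, 27.6, 28.9 and 22.8 CPM and Het libraries 17.9, 23.3, 18.2, 14.0 and 13.7 CPM, where only P11 Het 2 and P11 WT 5 crossed. The log2 fold change over both ages was -0.60 ± 0.09 (SE; adjusted p = 0.00356) and stayed called in all 22 omissions. Taken singly, the ages gave -0.55 ± 0.12 (adjusted p = 0.0517) and -0.65 ± 0.13 (adjusted p = 0.0543). The P5 effect passed in 7 of 22 omissions, those of P5 WT 4, P5 WT 6, P5 Het 2, P11 WT 5, P11 Het 2, P11 Het 4 and P11 Het 5.

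Col8a2, whose chain joins that of Col8a1, had log2 fold changes of -0.29 ± 0.16 at P5 and -0.42 ± 0.18 at P11, neither called (adjusted p = 0.858 and 0.436). Endothelial and mural cell markers (11 genes), read beside Col8a1 as a collagen of vessel walls, summed to 3410, 5291 and 6126 CPM in P5 WT (lowest, median and highest) and 4381, 5479 and 6048 CPM in P5 Het. At P11 they summed to 7185, 8112 and 9674 CPM in WT and 8437, 10373 and 12386 CPM in Het. None of the 11 genes was called between genotypes at either age, and their median log2 fold changes were 0.04 at P5 and 0.02 at P11. The part of vessel cells in the lower Col8a1 values was not tested.

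**Figure D4:**
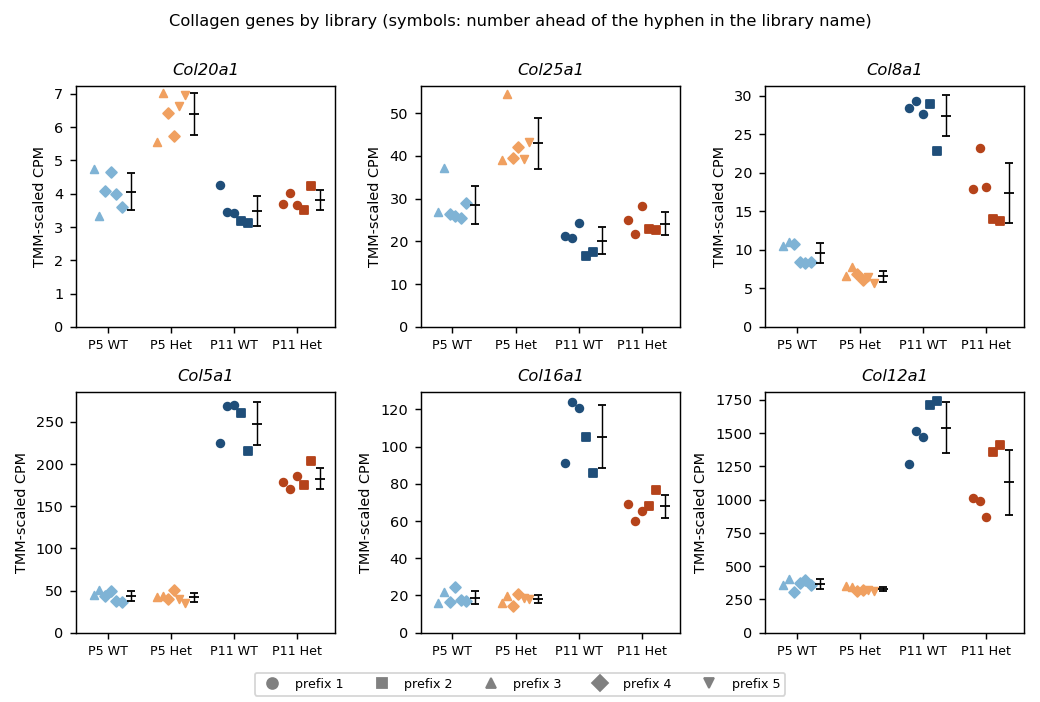
Level of 6 collagen genes in every library (TMM-scaled CPM, linear axes from 0), by group, with the mean and SD beside the points; symbols show the number ahead of the hyphen in the library name. P5 Het points lie above P5 WT points for Col20a1 and Col25a1, and P11 Het points lie below P11 WT points for Col5a1 and Col16a1.

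Across the family the P11 values leaned downward without single calls. Of 44 members 33 had a negative log2 fold change in Het molars at P11 (median -0.13), against a median of -0.01 and 48.3% positive over all genes tested. All 11 fibrillar collagens were negative at P11, with a median of -0.21. The 3 short-chain members were all negative, with a median of -0.53. At P5 24 of 44 were negative, with a median of -0.02, and 5 of the 11 fibrillar members were. In the interaction, the P11 effect minus the P5 effect, 34 of 44 and all 11 fibrillar members were negative, with medians of -0.15 and -0.21, and none was called. Without the 5 libraries high in oral keratinocyte or muscle genes, 29 of 44 members (median -0.18) and 9 of 11 fibrillar members (median -0.11) were negative at P11, against 50.7% positive over all genes. Col2a1 and Col3a1 were then positive, and Col2a1 was also positive without P11 WT 4 alone. In the interaction 32 and 8 were negative without these 5 libraries.

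Groups did not overlap at P11 for 4 members, all lower in Het: Col5a1, Col5a2, Col6a3 and Col16a1. Of all genes tested 0.748% lay wholly lower and 0.614% wholly higher in P11 Het. At P5 the genes without overlap were Col20a1 and Col25a1 (higher, against 0.344% of all genes) and Col8a1 (lower, against 0.507%).

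Col16a1 had 91.4, 124, 121, 105 and 85.9 CPM in P11 WT and 69.2, 60.2, 65.2, 68.2 and 76.7 CPM in P11 Het (log2 fold change -0.64 ± 0.12 SE, adjusted p = 0.0543). It passed in 3 of 22 omissions, those of P5 WT 4, P11 WT 5 and P11 Het 5. Col5a1 had 225, 269, 270, 260 and 216 CPM in P11 WT and 179, 170, 186, 175 and 203 CPM in P11 Het (-0.44 ± 0.10, adjusted p = 0.106). At P5 the 2 genes overlapped between genotypes, with log2 fold changes of -0.07 ± 0.12 and -0.05 ± 0.09.

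Col5a2, the partner chain of Col5a1, had 1777, 1973, 1937, 1869 and 1873 CPM in P11 WT and 1546, 1518, 1456, 1608 and 1753 CPM in P11 Het (-0.26 ± 0.09, adjusted p = 0.334). Col6a3 had 238, 262, 237, 243 and 230 CPM in P11 WT and 207, 200, 227, 214 and 212 CPM in P11 Het (-0.19 ± 0.07, adjusted p = 0.386). Both differences were small beside those of Col16a1, although no Het library reached a WT library. Col12a1 had 1270, 1513, 1467, 1708 and 1738 CPM in P11 WT and 1015, 992, 866, 1357 and 1414 CPM in P11 Het (-0.45 ± 0.11, adjusted p = 0.165), with overlap.

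The largest positive log2 differences among members that did not pass belonged to Col28a1 at P5 and Col4a4 at P11. Col28a1, a collagen known from peripheral nerve, was at 1.06 to 2.19 CPM in P5 WT and 2.12 to 3.77 CPM in P5 Het (0.73 ± 0.18, adjusted p = 0.0944). Its groups touched only where P5 WT 4 exceeded P5 Het 5, and it was called higher by DESeq2 (adjusted p = 0.0102; 0.200% of all genes were) and without P5 WT 4 (adjusted p = 0.0473). Col4a4 had 1.62, 1.04, 1.89, 1.61 and 1.19 CPM in P11 WT and 1.53, 2.79, 5.24, 1.61 and 2.67 CPM in P11 Het (0.91 ± 0.32, adjusted p = 0.357), with P11 Het 3 far above the other Het libraries.

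**Figure D5:**
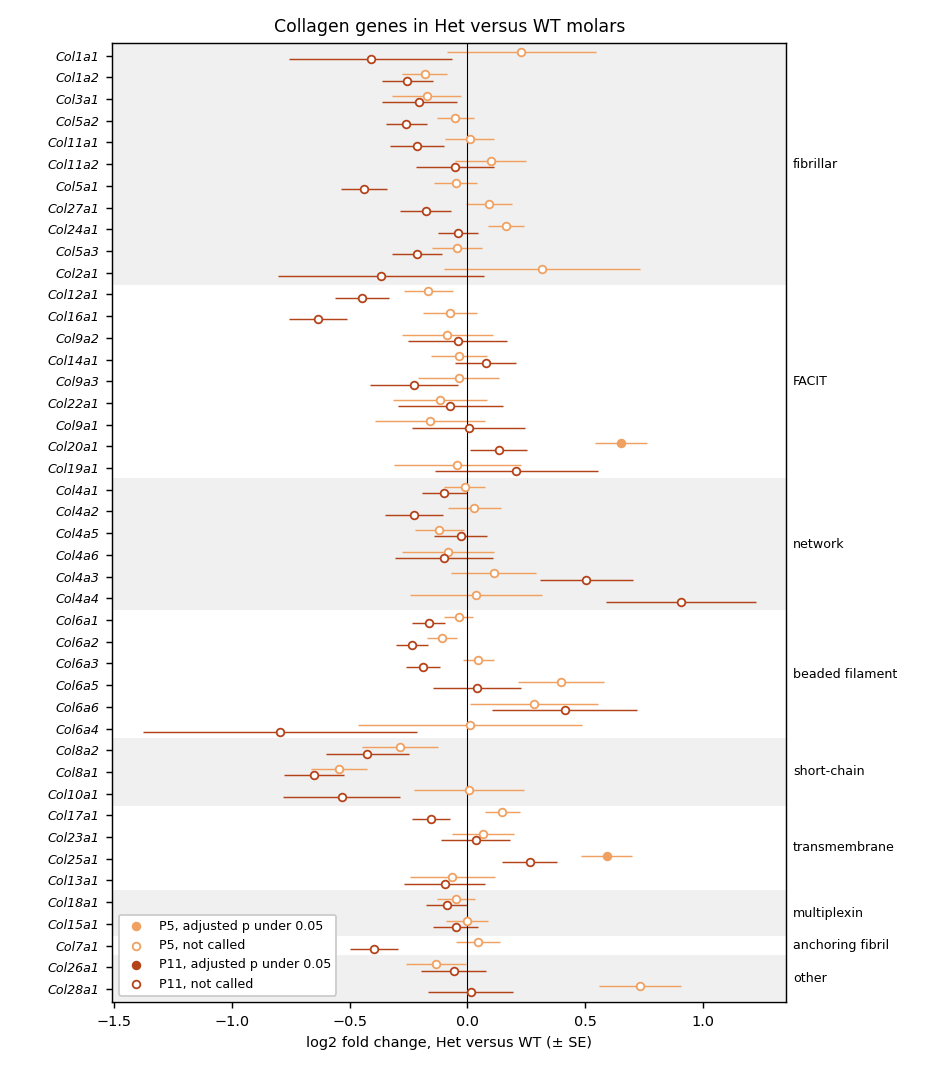
Log2 fold change (± SE) of each collagen gene in Het against WT molars at P5 and at P11, by class; filled points have an adjusted p under 0.05. Col20a1 and Col25a1 at P5 are the filled points, and all 11 fibrillar members lie left of 0 at P11.

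Library names carry a number ahead of a hyphen, 3, 4 or 5 at P5 and 1 or 2 at P11, which the labels do not explain. Between WT and Het libraries at P11, deviations from group means had a median correlation of 0.018 within a number and -0.005 across numbers. How many genes separate by genotype within each number was not counted. Col12a1, whose P11 groups overlapped, did not overlap within a number. It was, in the libraries numbered 1, at 1270, 1513 and 1467 CPM in WT and 1015, 992 and 866 CPM in Het, and in those numbered 2 at 1708 and 1738 CPM in WT and 1357 and 1414 CPM in Het. With the number as a block, 5 members were lower in P11 Het molars and none higher, against 0.177% and 0.219% of all genes. They were Col8a1 (-0.67 ± 0.10, adjusted p = 0.00326), Col12a1 (-0.46 ± 0.08, adjusted p = 0.00753), Col7a1 (-0.39 ± 0.07, adjusted p = 0.0202), Col16a1 (-0.63 ± 0.13, adjusted p = 0.0319) and Col5a1 (-0.44 ± 0.09, adjusted p = 0.0432).

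At P5 the block called Col20a1 and Col25a1 higher and Col8a1 lower, against 0.0930% and 0.228% of all genes. Number 5 belongs to P5 Het 5 and 6 alone, so these 2 libraries add nothing to that estimate. Over both ages the block called Col25a1 higher and Col8a1 and Col12a1 lower, against 0.167% and 0.228%, and Col20a1 had an adjusted p of 0.0746.

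Tendon and periodontal ligament markers also had lower values in Het molars at P11. Their summed level was 1345, 1780, 1517, 1876 and 2033 CPM in P11 WT and 924, 1129, 967, 1360 and 1574 CPM in P11 Het, and 4 of the 5 genes had a negative log2 fold change, none of them called. Most of the sum came from Postn alone, at 1017 to 1503 CPM in P11 WT and 652 to 1118 CPM in P11 Het. The ranges of the sum overlapped, but within name number 1 and within name number 2 every Het sum lay below every WT sum. How often other marker lists do so was not counted. Ameloblast marker sums leaned the other way at P11, with 83004 to 91123 CPM in WT and 86507 to 125232 CPM in Het. Of those 8 genes, 5 had a positive log2 fold change at P11 and none was called. The part of ligament cells or ameloblasts in the lower Col5a1, Col12a1 and Col16a1 values was not tested.

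Genes that make, process, bind or degrade collagen were taken from lists of 63 genes, of which 62 were tested. In WT molars 35 of them rose and 14 fell with age (median log2 fold change 0.37), against 24.8% and 24.7% of all genes and an all-gene median of -0.01. Of 20 genes of procollagen synthesis and folding, 10 rose and 6 fell. The prolyl 3-hydroxylase P3h2 rose by 2.34 ± 0.23 on the log2 scale (± SE) and the prolyl 4-hydroxylase subunit P4ha3 by 2.26 ± 0.11. Of 13 genes of propeptide cleavage and crosslinking, 8 rose and 4 fell, among them the crosslinking enzyme Loxl2 (2.09 ± 0.11) and Pcolce2, an enhancer of C-propeptide removal (-3.05 ± 0.20).

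Of 14 fibril-associated regulators 8 rose and 2 fell. The ligament protein periostin (Postn) rose by 4.05 ± 0.16 and asporin (Aspn), which binds fibrils, by 3.57 ± 0.23. Both also belong to the ligament markers above. Of 9 collagen receptors 4 rose and 2 fell, led by the integrin chain Itga11 (1.34 ± 0.09) and the inhibitory receptor Lair1 (1.12 ± 0.35). Of 6 collagen-degrading proteases 5 rose and none fell, led by the collagenase Mmp13 (3.50 ± 0.12) and the gelatinase Mmp9 (2.66 ± 0.22). In Het molars 28 of the 62 rose and 15 fell with age, against 24.4% and 23.4% of all genes.

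Between genotypes 1 of the 62 genes was called. At P5 1 was lower and none higher in Het molars, against 0.195% and 0.0651% of all genes. None was called at P11, against 0.0232% higher and 0.00465% lower. Over both ages none was called either, against 0.0651% and 0.107%, nor in the interaction, against 0.0139% and 0.0%. Mmp13, which cleaves fibrillar collagen, was at 49.7, 67.7 and 79.9 CPM (lowest, median and highest) in P5 WT and at 36.7, 43.4 and 51.4 CPM in P5 Het, with a slight overlap (log2 fold change -0.60 ± 0.11 SE, adjusted p = 0.0119). It was called in all 22 omissions of a library, but not without the 5 libraries high in oral keratinocyte or muscle genes (adjusted p = 0.0711). At P11 it was at 722 to 826 CPM in WT and 598 to 837 CPM in Het (adjusted p = 0.815). The P5 and P11 effects of Mmp13 were not shown to differ (interaction adjusted p = 0.376).

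Other partner genes named for their change with age did not pass between genotypes. Pcolce2 was at 19.7 to 28.1 CPM in P5 WT and 33.2 to 43.2 CPM in P5 Het, without overlap (log2 fold change 0.61 ± 0.17, adjusted p = 0.195). P3h2 was at 7.96 to 16.2 CPM in P11 WT and 5.35 to 7.12 CPM in P11 Het (-0.92 ± 0.23, adjusted p = 0.138), and Loxl2 at 37.6 to 42.4 and 27.8 to 33.8 CPM (-0.36 ± 0.12, adjusted p = 0.327), neither with overlap. The partner genes Adamts2, Adamts14, Colgalt1 and Itgb1 also lay wholly lower in P11 Het. Of all genes tested 0.344% lay wholly higher in P5 Het and 0.748% wholly lower in P11 Het. At P11 48 of the 62 partner genes had a negative log2 fold change (median -0.14), where 48.3% of all genes were positive (median -0.01). They included 11 of 13 in propeptide cleavage and crosslinking (median -0.26) and 6 of 6 proteases. At P5 39 of the 62 were negative (median -0.04), where 48.8% of all genes were positive (median -0.0042).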

How the data were processed

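Whole first mandibular molars of WT and Tgfbr2-G357W/+ mice gave 22 bulk RNA libraries (Nextera XT, unstranded, paired reads of 100 bases, per the labels' protocols), grouped by their titles. The submitters' processing notes name GRCm38, STAR 2.7.3a, limma, edgeR and DESeq2, without saying what the last 3 did; as to the read counter and annotation, these were not given in the sources used here. Raw counts per gene were deposited by the authors, as was a table of TMM-scaled CPM (unit: signal), used for gene symbols and checked against the counts (largest relative difference 0.000141). From the deposited counts, 18 features that are not mouse genes were left out (0.000109% to 0.000457% of a library).

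Genes were filtered with filterByExpr (minimum count 10, minimum total 15) and tested two-sided in R 4.3.3 by quasi-likelihood (edgeR 4.0.16, TMM) in 1 fit of all 22 libraries and 4 groups, which left 18 residual degrees of freedom. P-values were Benjamini-Hochberg adjusted over 21510 genes and called under 0.05; unless another tool is named, adjusted p-values come from that test. The SE is the log2 fold change over the square root of F. Reads carry no molecular identifiers. Coordinates, exons and lengths come from GENCODE M21 (GRCm38), using the basic-set transcript with the longest coding sequence. For Col25a1 that transcript is 2624 bases, so its per-length level depends on this choice.

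Alternatives were DESeq2 1.42.0, its size factors, limma-voom (limma 3.58.1), no filter, blocks for replicate number or library-name number, a fit of 1 age, omission of each library, and omission of 5 libraries. Scripts were tested on simulated data. Members and lists were chosen with earlier results of these data known. Genes described library by library were those called between genotypes, the 2 highest per class, the 5 largest called rises and falls with age in WT, and those without overlap between genotypes; of partner genes, those called between genotypes and the 2 largest called changes per list with age. Gp6, Lor and Matn1 of the lists had no row. P-values measure the spread between libraries.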

Additional observations from a re-analysis of the deposited data

Results flagged for a closer look

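In groups of 5 or 6 libraries, 8 of 148 groups of values (the members described library by library and the 8 chain ratios, in each group of libraries) held a library far from its group by Dixon's test, or 5.41%. Chance flags about 1 in 20 groups. Col25a1 was at 37.1 CPM in P5 WT 2, where the other P5 WT libraries had 25.4 to 29.1, and at 54.5 CPM in P5 Het 2, where the others had 39.0 to 43.2. Col20a1 was at 4.25 CPM in P11 WT 1 (others 3.12 to 3.44). Col8a1 was at 22.8 CPM in P11 WT 5 (others 27.6 to 29.3). Col15a1 was at 10.6 CPM in P5 Het 5 (others 7.97 to 8.87). Col6a6 was at 0.643 CPM in P5 Het 6, labelled P5 in some fields and P11 in others (other libraries 1.38 to 1.79). The per-length ratio of Col4a3 to Col4a4 was 3.99 in P5 WT 3 (others 0.999 to 1.71), and that of Col4a5 to Col4a6 was 8.72 in P11 Het 1 (others 4.83 to 5.58).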

How the results depend on the processing

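Members called between genotypes, and those whose genotypes did not overlap, kept their direction in that comparison under the alternatives run. Smaller differences did not: Col5a1 at P5 went from -0.05 to 0.02 with the library-name block, and it also changed sign without P5 WT 2 or P5 Het 6, as did Col16a1 at P5 without P5 WT 4. At P5 the count of members lower in Het (0) became 1, Col8a1, with DESeq2 size factors, with no filter, with DESeq2, with the replicate block, with the library-name block and in a fit of P5 alone; with a library left out it was 0 to 1. At P11 the count lower (0) became 2 with no filter and with limma-voom (Col8a1 and Col16a1), 5 with DESeq2 and with the library-name block (Col5a1, Col7a1, Col8a1, Col12a1 and Col16a1 in both), and 1 (Col8a1) with the replicate block and without the 5 libraries high in oral keratinocyte or muscle genes. With a library left out it was 0 to 2, with 2 without P11 WT 5 and 1 without P5 WT 4, P11 Het 2 or P11 Het 5. Over both ages the count higher (2) became 1 with no filter, the replicate block or the library-name block (Col25a1 in each) and 0 without the 5 libraries, and was 0 to 2 with a library left out. The count lower (1) became 3 with DESeq2 (Col8a1, Col12a1 and Col16a1) and 2 with the library-name block (Col8a1 and Col12a1), and was 1 to 2 with a library left out, the 2 without P11 Het 5. The count of members falling with age in WT (8) became 5 without the 5 libraries. The causes were not tested. Replicate numbers did not pair the libraries: same-numbered WT and Het libraries had deviations correlated between -0.134 and 0.208. The lowest members, Col6a4, Col6a6 and Col19a1, rest on few counts, so differences between their libraries are imprecise.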
